A study of Mus musculus with 18 samples.

Results

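Slfn1, Slfn2, Slfn5 and Slfn8 are 4 genes of the mouse Schlafen family. They were taken by symbol from a table of 24781 gene entries, and all 4 were found there. The rows were matched by symbol, but the family was selected on measured values, as an earlier fit of these counts had called Slfn2 between CD45 knockout (KO) and control mature ILC2. The Slfn2 difference in that population is therefore given as a description. Its adjusted p states where the gene stood among the genes tested and supports nothing further, and the same holds for differences of CD45 effects that involve mature ILC2.

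The libraries were made from group 2 innate lymphoid cells (ILC2), tissue lymphocytes without rearranged antigen receptors that secrete type 2 cytokines. CD45, encoded by Ptprc, is a receptor tyrosine phosphatase of blood cells that acts on Src family kinases. All mice carried a Rag2 KO, which leaves them without T and B cells. Control groups were labelled Rag2 KO and the others CD45 KO x Rag2 KO. Each genotype gave 3 libraries of mature ILC2 and 3 of immature ILC2 (labelled ILC2P) from bone marrow, and 3 of lung ILC2, so that 18 libraries formed 6 groups. Nothing in the labels says that the libraries of a group came from separate animals, so p-values measure the spread between these libraries, which may be technical. In bulk samples, fewer cells of a type and less RNA per cell cannot be told apart.

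Schlafen proteins share an N-terminal core domain. The short members, Slfn1 and Slfn2, consist of little else, whereas long members such as Slfn5 and Slfn8 carry an added helicase-like region. The family was first described in developing thymocytes, many of its genes are induced by type I interferon, and loss of Slfn2 function in mice leaves T cells unable to keep a quiescent state. Slfn1 has been described as slowing thymocyte growth when expressed by force.

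The 10 Schlafen entries on chromosome 11 lie between positions 82942341 and 83286726 of the GRCm38 build, a span of 344.4 kb. The GENCODE M21 annotation places Slfn5 (ENSMUSG00000054404.13) at 82951349 to 82964840 on the plus strand and Slfn8 (ENSMUSG00000035208.16) at 83002158 to 83020810 on the minus strand. Slfn2 (ENSMUSG00000072620.3) is at 83065112 to 83070678 and Slfn1 (ENSMUSG00000078763.2) at 83116849 to 83122670, both on the plus strand. All 4 are protein coding. Between Slfn8 and Slfn2 lies Slfn10-ps, annotated as a transcribed pseudogene, on the minus strand. Slfn5os, an antisense transcript, overlaps Slfn5, and the sources used here do not say whether counting used strand. Slfn5os had 0 counts in all 18 libraries.

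The 250 bases upstream of the RefSeq start (GRCm38.p6) are shown for the 3 members that were detected in most libraries. Of these, 2 hold a match to an interferon-stimulated response element and Slfn2 does not. Whether a match bears on the counts was not tested. Each window is written 5′ to 3′ on the gene's own strand. Capitals mark the response element match in Slfn5 and Slfn8, and in Slfn2 the stretch it shares with the Slfn1 window. The windows are chr11:82951852-82952101 on the plus strand for Slfn5, chr11:83020811-83021060 on the minus strand for Slfn8 and chr11:83064862-83065111 on the plus strand for Slfn2.
Slfn5: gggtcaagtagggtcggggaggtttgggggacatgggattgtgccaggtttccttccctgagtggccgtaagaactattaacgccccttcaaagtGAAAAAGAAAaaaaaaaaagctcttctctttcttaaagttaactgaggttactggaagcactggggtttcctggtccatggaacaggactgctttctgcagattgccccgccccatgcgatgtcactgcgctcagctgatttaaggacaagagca
Slfn8: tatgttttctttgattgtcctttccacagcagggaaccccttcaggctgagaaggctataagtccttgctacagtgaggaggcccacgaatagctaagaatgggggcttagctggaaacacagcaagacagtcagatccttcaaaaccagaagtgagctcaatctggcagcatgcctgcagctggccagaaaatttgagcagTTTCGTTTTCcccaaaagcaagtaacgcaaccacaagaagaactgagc
Slfn2: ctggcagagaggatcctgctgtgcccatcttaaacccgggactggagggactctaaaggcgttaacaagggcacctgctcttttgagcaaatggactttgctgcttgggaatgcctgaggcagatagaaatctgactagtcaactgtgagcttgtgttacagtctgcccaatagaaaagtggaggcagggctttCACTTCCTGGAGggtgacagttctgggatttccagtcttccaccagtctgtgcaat

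The response element was searched on both strands as GAAA followed by another GAAA after any 2 bases. Among the 10 Schlafen entries with a window, 3 held a match: Slfn5 at 155 bases before the start, Slfn8 at 48 and Slfn9 at 45. A second window of Slfn8, for another RefSeq start, held the same match at 136 bases. Over all 32851 windows of this length, 978 (2.98%) held a match, a share of windows and not of gene entries. The Slfn8 and Slfn9 windows also shared a run of 20 bases held by 3 of all windows, so their matches may not be separate. The gamma-activated site motif, searched as TTC and GAA separated by any 3 bases, which can overlap the first motif, was in 0 of the 10 Schlafen entries and in 2306 of all windows (7.02%). Slfn2 and Slfn1 shared 12 bases, starting 56 bases before the start of Slfn2 and 75 before that of Slfn1, and 5 of all windows (0.0152%) held them. A match describes letters in a window and no more.

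**Figure D1:**
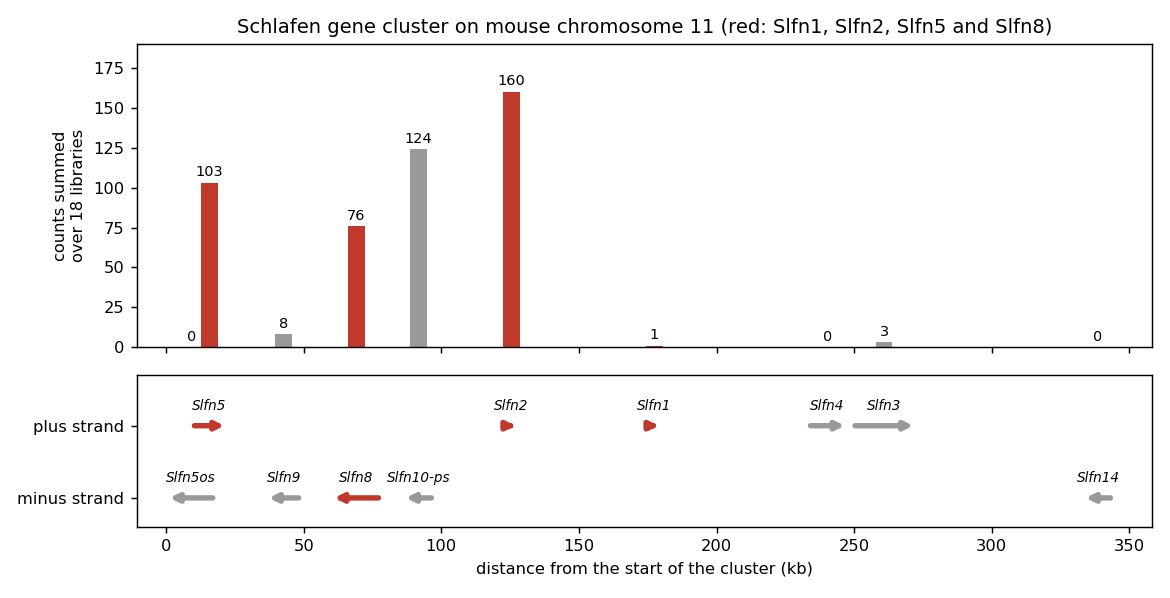
The top panel plots counts summed over the 18 libraries (vertical axis) for each Schlafen entry of the chromosome 11 cluster, against distance from its start in kb. The lower panel shows the genes' extents and strands, with Slfn1, Slfn2, Slfn5 and Slfn8 in red. Slfn2 (160 counts), Slfn10-ps (124), Slfn5 (103) and Slfn8 (76) held most counts, whereas Slfn1 held 1.

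These libraries were shallow. Total counts ran from 68077 to 122250, and between 7189 and 8793 genes had a count in a library. Levels are normalised CPM, that is, counts relative to the TMM-scaled total of the library, and a single count was worth 8.42 to 14.9 CPM. Where no count was seen, up to 3 counts are allowed, or 25.3 to 44.7 CPM, for counting error only. Ptprc fell by 1.68, 2.01 and 1.86 on the log2 scale in mature, immature and lung CD45 KO libraries (edgeR quasi-likelihood test, adjusted p = 0.00015, 7.9e-06 and 6.28e-07). Ptprc stood at 238 CPM in the library labelled mature CD45 KO replicate 1, at 101 and 88 CPM in replicates 2 and 3, and at 253 to 541 CPM in mature controls. The ILC2 identity genes Gata3, Rora, Il7r and Il1rl1 had counts in all 18 libraries, and 14 ILC2 markers summed to 6440 to 9010 CPM in marrow and 12400 to 15400 CPM in lung libraries. Summed markers of T cells, B cells, NK cells and ILC1, and ILC3 were at most 52.8 CPM in any library. Macrophage and monocyte markers summed to at most 75.8 CPM in marrow libraries, to 0 in lung controls and to 0 to 167 CPM in lung CD45 KO libraries, and their part in the lung comparison was not tested. Standing apart within its group was the library labelled mature CD45 KO replicate 1, with a chi-square per degree of freedom of 3.45 and 3.66 against the other libraries of that group, compared with 1.12 to 1.69 for all other pairs within groups.

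Slfn2 was detected in all 18 libraries, with 2 to 21 counts in each. Slfn5 was detected in 16 and Slfn8 in 17, with at most 14 and 12 counts. Slfn1 had a single count, in mature CD45 KO replicate 2. The filter on low counts, which needs about 10 counts in enough libraries, left 1916 genes for testing, and Slfn2 and Slfn5 were among them. Slfn8 and Slfn1 were not, so Slfn8 is given below from a fit of all 12945 genes with any count, and Slfn1 as its count alone. A gene can pass this filter through its highest group alone, so the 2 tested genes do not stand for all 4. The other Schlafen entries held 124 counts for Slfn10-ps, 8 for Slfn9 and 3 for Slfn3, and 0 for Slfn4, Slfn14, Slfn5os and Slfnl1.

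**Figure D2:**
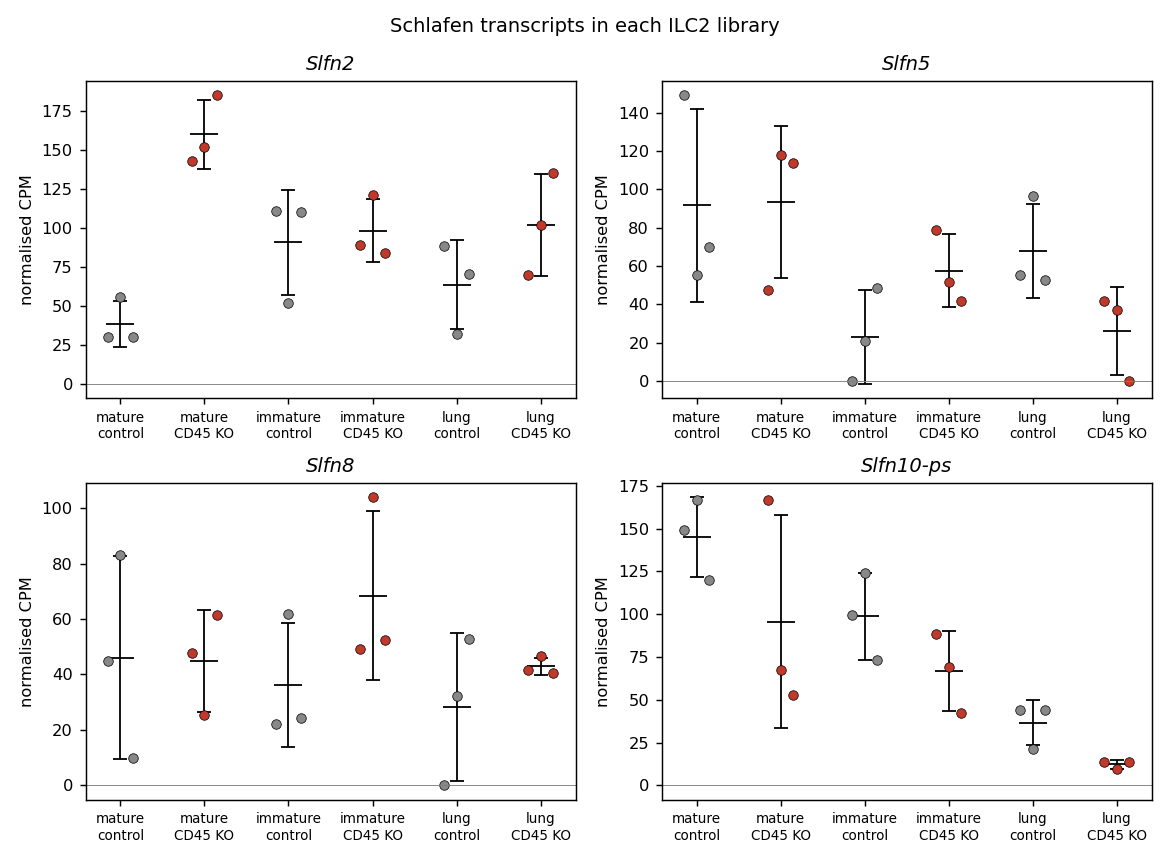
Normalised CPM (vertical axes) of Slfn2, Slfn5, Slfn8 and Slfn10-ps in each library by group. Points are libraries, grey for control and red for CD45 KO, and the bars give the mean and SD of 3. The 3 mature CD45 KO libraries hold the highest Slfn2 levels of all 18, from 143 to 185 CPM.

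Slfn2, the short member tied to T cell quiescence, was low in mature control ILC2 and high in mature CD45 KO ILC2. Mature controls held 2, 4 and 3 counts, or 29.8, 55.5 and 30.1 CPM. Mature CD45 KO libraries held 12, 18 and 21 counts, or 143, 152 and 185 CPM. The 3 CD45 KO libraries were the highest of all 18 and the groups did not overlap. Mean levels were 160 ± 22.1 CPM in CD45 KO and 38.5 ± 14.8 CPM in control libraries (SD, n = 3), a log2 fold change of 2.06 ± 0.47 (SE) or 4.16-fold. Summed over each group, 51 counts (exact 95% Poisson interval 38.0 to 67.1) stood against 9 (4.12 to 17.1), intervals that cover counting error only.

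The adjusted p by the quasi-likelihood test of edgeR (Benjamini-Hochberg, 1916 genes) was 0.0143 and Slfn2 had the 4th smallest p of the comparison. The comparison called 0.261% of all genes tested, and 6.58% had CD45 KO libraries all above controls. Since Slfn2 was known from this contrast, nothing is read from its being called. In edgeR the call was lost when mature control replicate 1 (adjusted p = 0.0703), mature control replicate 3 (adjusted p = 0.162) or mature CD45 KO replicate 3 (adjusted p = 0.156) was left out. It was also lost with the Wald test of DESeq2 (unadjusted p = 0.00045, adjusted p = 1 over genes with a count and 0.2 over the genes edgeR tested). With the library labelled mature CD45 KO replicate 1 left out, the edgeR log2 fold change was 2.12 (adjusted p = 0.0134), and 14 genes passed in place of 5.

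Neutrophil markers differed between the same groups. The 7 markers summed to 2490 CPM in mature control replicate 1, 167 and 90.2 CPM in the other mature controls and 25.3 to 70.4 CPM in mature CD45 KO libraries. All 7 had a count in mature controls, with S100a8 and S100a9 the most abundant over all libraries (92 and 80 counts). Without mature control replicate 1 the Slfn2 log2 fold change was 1.95. T cell markers summed to 0 in mature controls and to 11.9 to 26.4 CPM in mature CD45 KO libraries, where 2 of the 6 in the table had a count, and over all 18 libraries Cd3g had 26 counts, Cd3e 2, Cd3d 1 and Cd4, Cd8a and Cd8b1 0. The part of neutrophil or T cell transcripts in the Slfn2 difference was not tested.

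**Figure D3:**
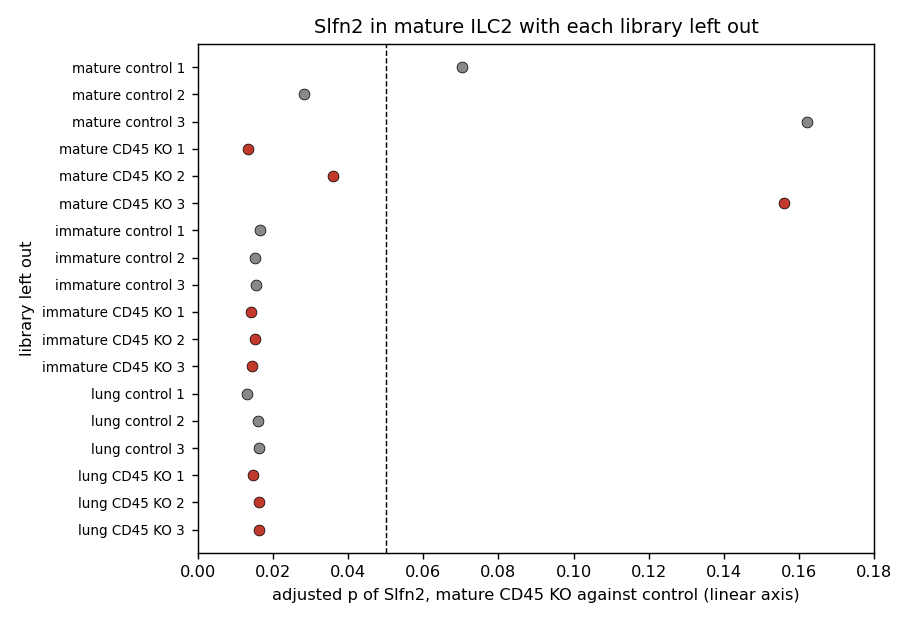
Adjusted p (horizontal axis, linear) of Slfn2 in mature CD45 KO against control ILC2 when the library named on the vertical axis is left out; the dashed line marks 0.05. Leaving out mature control replicate 1 or 3 or mature CD45 KO replicate 3 takes it past the line, up to 0.162.

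In immature marrow ILC2, Slfn2 levels of the genotypes overlapped. Controls held 111, 51.7 and 110 CPM and CD45 KO libraries 88.7, 121 and 84.0 CPM. The log2 fold change was 0.15 ± 0.41 (adjusted p = 0.935). In lung, controls held 88.2, 32.1 and 70.3 CPM and CD45 KO libraries 69.5, 102 and 135 CPM. The lowest CD45 KO library lay below the highest control, and the log2 fold change of 0.68 ± 0.45 did not pass (adjusted p = 0.541). The comparisons called 1.67% of all genes in immature and 2.51% in lung ILC2, and 0 of the 2 tested members in either by edgeR. With DESeq2, which gave no adjusted p for Slfn5 in immature and for both members in lung under its own filter, 0 passed when its p was adjusted over the genes edgeR tested. At an unadjusted p under 0.05 were 0 members by either tool, and 12.3% of all genes in immature and 14.5% in lung ILC2 by edgeR.

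The CD45 effect on Slfn2 was larger by 1.91 ± 0.64 (log2) in mature than in immature ILC2, with an unadjusted p of 0.00387 and an adjusted p of 0.826 by edgeR. Of all genes, 0 passed in that contrast (0%), also by DESeq2, and Slfn2 had the 8th smallest p. In lung minus mature ILC2 the difference of effects was -1.38 ± 0.68 (adjusted p = 0.479), where 0.313% of genes passed. In lung minus immature ILC2 it was 0.53 ± 0.61 (adjusted p = 0.8), where 0.365% of genes passed. A difference in the Slfn2 response between populations was thus not detected by the adjusted test at this depth. The lung and immature values rest on 3 to 14 counts per library.

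Among control ILC2, mean Slfn2 was lowest in mature marrow (38.5 ± 14.8 CPM), followed by lung (63.5 ± 28.7) and immature marrow (90.7 ± 33.8). Neighbouring groups in that order overlapped. Mature minus immature was -1.22 ± 0.54 on the log2 scale (unadjusted p = 0.027, adjusted p = 0.858), lung minus mature 0.74 ± 0.57 (adjusted p = 0.374) and lung minus immature -0.48 ± 0.45 (adjusted p = 0.483). The controls are shared with the CD45 comparisons, so these values and the CD45 effects are not independent. Over all 6 groups the means rose from 38.5 CPM in mature controls to 98.0 ± 20.2 in immature CD45 KO, 102 ± 32.7 in lung CD45 KO and 160 CPM in mature CD45 KO libraries. Only the last step, from lung to mature CD45 KO, separated the libraries of neighbouring groups. The share of all genes so separated is not given here. Mature CD45 KO libraries were part of the contrast that led to the family, so nothing is read from their place.

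Slfn1, the other short member, was close to undetected. Its single count made 8.42 CPM in mature CD45 KO replicate 2, and the other 17 libraries held 0. Such a count shows no difference between groups, and a library with none may still hold up to 44.7 CPM where a count was worth most. None of the last 500 transcript bases of Slfn1, Slfn2 or Slfn5, the part that oligo-dT priming samples, held a 50-base run found in another gene's transcripts.

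Slfn5, a long member with the helicase-like region, was present in mature marrow ILC2 of both genotypes and lowest in immature controls and lung CD45 KO libraries. In mature ILC2 the controls held 149, 55.5 and 70.2 CPM and the CD45 KO libraries 47.7, 118 and 114 CPM. Both extremes of this population came from replicate 1 libraries, and the groups overlapped, with a log2 fold change of 0.13 ± 0.49 (adjusted p = 0.985). It ranged from -0.09 to 0.59 when single libraries were left out, and was highest without mature control replicate 1. That library held 2490 CPM of neutrophil markers, whose part in the Slfn5 levels was not tested. In immature ILC2 the controls held 0, 20.7 and 48.8 CPM and the CD45 KO libraries 78.9, 51.9 and 42.0 CPM. Here 2 CD45 KO libraries lay above all controls and 1 did not, and the log2 fold change of 1.32 ± 0.70 did not pass (unadjusted p = 0.0645, adjusted p = 0.443). It was 0.75 without immature control replicate 1, which held no count, and 2.30 without immature control replicate 3.

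In lung the order was the opposite. Controls held 55.1, 96.3 and 52.8 CPM of Slfn5 and CD45 KO libraries 41.7, 37.2 and 0 CPM. Every CD45 KO library lay below every control, as for 7.41% of all genes tested, but the log2 fold change of -1.25 ± 0.67 did not pass (unadjusted p = 0.0648, adjusted p = 0.394). These lung libraries held 0 to 9 counts of the gene. The CD45 effect in lung minus that in immature ILC2 was -2.57 ± 0.97, at an unadjusted p of 0.00969 and an adjusted p of 0.225, and ranged from -3.55 without immature control replicate 3 to -2.00 without replicate 1. In lung minus mature it was -1.38 ± 0.83 (adjusted p = 0.567) and in mature minus immature -1.19 ± 0.86 (adjusted p = 0.987), or -2.17 without immature control replicate 3. No difference of Slfn5 effects passed.

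**Figure D4:**
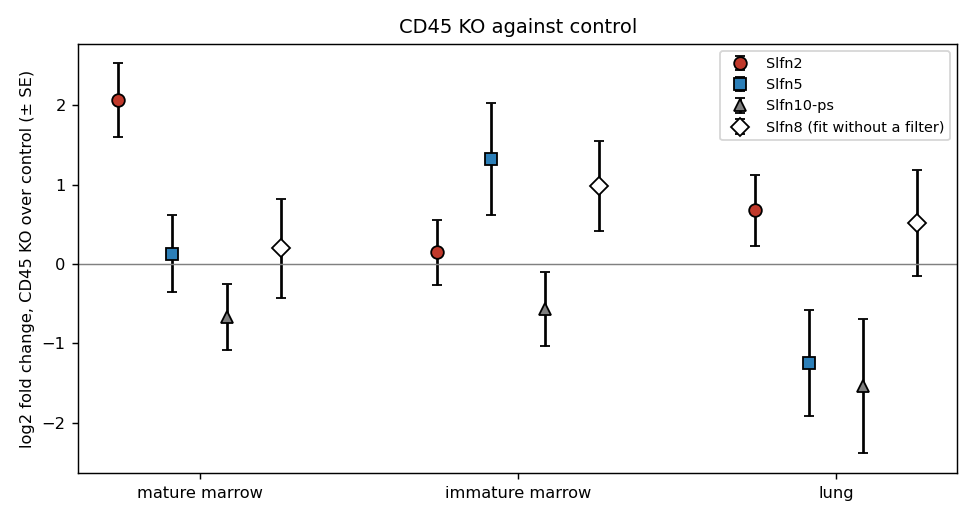
Log2 fold change of CD45 KO over control (vertical axis, ± SE) in mature marrow, immature marrow and lung ILC2 for Slfn2, Slfn5, Slfn10-ps and Slfn8, the last from the fit without a filter. Slfn2 in mature ILC2 (2.06) is farthest from 0, and Slfn5 is at 1.32 in immature and -1.25 in lung ILC2.

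Control levels of Slfn5 were 91.6 ± 50.3 CPM in mature, 68.0 ± 24.5 in lung and 23.2 ± 24.5 in immature ILC2. Mature controls all lay above immature controls, as for 5.06% of genes, with a log2 difference of 1.92 ± 0.68 (unadjusted p = 0.00557, adjusted p = 0.82). It was 1.36 without immature control replicate 1 and 2.90 without replicate 3. In this contrast 2 of the 2 tested members by edgeR and 1 by DESeq2 were at an unadjusted p under 0.05, where 5.38% and 2.82% of all genes were. The other of them is Slfn2, whose mature controls were part of the contrast that led to the family. Slfn5 reached 10 counts in mature libraries alone: control replicate 1 (10) and CD45 KO replicates 2 and 3 (14 and 13). It thus passed the low-count filter through mature ILC2, so nothing is read from the share of members. Neither member passed, where 0.0522% of genes did. Lung controls also all lay above immature controls, as for 20.1% of genes, with a log2 difference of 1.54 ± 0.69 (unadjusted p = 0.0282, adjusted p = 0.0912). That contrast called 25.5% of all genes and 0 of the 2 members, with Slfn5 at an unadjusted p under 0.05 by both tools, as were 35.4% (edgeR) and 28.2% (DESeq2) of all genes. Without immature control replicate 3 Slfn5 passed (2.52, adjusted p = 0.0345). Lung minus mature was -0.39 ± 0.53 (adjusted p = 0.644). Without mature control replicate 1, which held 149 CPM of Slfn5 and 2490 CPM of neutrophil markers, the value was 0.07. The lung minus mature contrast called 25.6% of genes and 0 of the 2 members, with 0 at an unadjusted p under 0.05 by either tool.

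Slfn8, a second long member, had up to 12 counts per library and no group stood apart. Mature controls held 44.7, 83.3 and 10 CPM and mature CD45 KO libraries 47.7, 25.3 and 61.6 CPM. Immature controls held 22.1, 62.0 and 24.4 CPM, and immature CD45 KO libraries 49.3, 104 and 52.5 CPM. Lung controls held 0, 32.1 and 52.8 CPM, and lung CD45 KO libraries 41.7, 46.5 and 40.5 CPM. The highest group mean was 68.5 ± 30.6 CPM in immature CD45 KO ILC2 and the lowest 28.3 ± 26.6 CPM in lung controls, and all neighbouring groups in the order of means overlapped. In the fit of all 12945 genes, the CD45 log2 fold change of Slfn8 was 0.20 ± 0.62 for mature, 0.99 ± 0.57 for immature and 0.52 ± 0.67 for lung ILC2 (edgeR, adjusted p = 1, 0.903 and 0.994). Differences between control populations ran from -0.33 ± 0.69 for lung minus mature to 0.17 ± 0.67 for mature minus immature. In its last 500 transcript bases 14 of 451 runs of 50 bases (3.1%) also occur in Slfn9, so some of its counts are uncertain.

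Slfn10-ps, the transcribed pseudogene between Slfn8 and Slfn2, was lower in lung than in marrow controls. It reached 10 counts in marrow libraries alone, so it passed the low-count filter through the groups where it was high. Controls held 149, 167 and 120 CPM in mature marrow, 99.5, 124 and 73.2 in immature marrow and 44.1, 21.4 and 44.0 in lung. Lung controls lay below all marrow controls, and the share of all genes that did so is not given here. The log2 difference was -1.92 ± 0.50 for lung minus mature (adjusted p = 0.00191) and -1.41 ± 0.53 for lung minus immature (adjusted p = 0.0379), in contrasts that called 10.6% and 10.9% of genes as lower in lung. The second call was lost when any of 5 single libraries was left out: immature control replicate 1 or 2, or lung control replicate 1, 2 or 3 (highest adjusted p 0.159). It was also lost with DESeq2 (0.225) and without a filter (0.195). Without a filter the lung minus mature difference was -1.78 ± 0.49 (edgeR, adjusted p = 0.0106). CD45 KO libraries held 167, 67.4 and 52.8 CPM in mature, 88.7, 69.2 and 42.0 in immature and 13.9, 9.31 and 13.5 in lung ILC2. The lung values are near the floor, with 1 count in each CD45 KO library and 4, 2 and 5 counts in controls. None of its CD45 differences passed (-0.67 ± 0.42, -0.57 ± 0.46 and -1.54 ± 0.85, adjusted p = 0.663, 0.659 and 0.42). The mature value of Slfn10-ps ranged from -1.23 to -0.37 when single libraries were left out. It was -1.23 (edgeR, adjusted p = 0.323) without mature CD45 KO replicate 1, the library that stood apart within its group. Of its 451 runs, 79 (17.5%) also occur in Slfn8 or Slfn9, so reads may be split between these copies.

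Slfn9 and Slfn3 were near the limit of detection. Slfn9 had 1 or 2 counts in each of 6 libraries, spread over 5 groups with none in immature controls. Slfn3 had 1 count in mature control replicate 3 and 2 in immature CD45 KO replicate 3. Of 27 other protein-coding genes annotated within 500 kb of the cluster, 26 were in the table, 17 had a count and 1 was tested. That gene, the chemokine Ccl5, was lower in lung than in mature and immature controls (-3.00 and -2.18, log2, edgeR adjusted p = 6.53e-07 and 0.00131). Those contrasts called 10.6% and 10.9% of all genes as lower in lung. Its lung and immature control libraries overlapped (24.1 ± 32.9 and 124 ± 63.5 CPM). Ccl5 did not pass in any CD45 comparison.

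Because many Schlafen genes respond to interferon, a list of 36 interferon response genes was described beside them, of which 14 were tested. A gene can pass the filter on low counts through its highest group alone. The 14 thus do not stand for all 36, and their medians and counts of positive or called genes may be tilted. In mature ILC2, 12 of the 14 had a positive CD45 log2 fold change, with a median of 0.61, against 50.2% positive and a median of 0.00 over all genes. None passed by edgeR or DESeq2 (both over the same 1916 genes here and below). At an unadjusted p under 0.05 were 7 by edgeR and 5 by DESeq2, against 9.03% and 5.64% of all genes. In immature ILC2, 12 were positive, with a median of 0.67, and 4 rose, against 1.1% of all genes tested. Among them were the immunity-related GTPases Igtp (1.69 ± 0.33, adjusted p = 0.000787), Iigp1 (2.48 ± 0.49, adjusted p = 0.000787) and Tgtp1 (0.85 ± 0.22, adjusted p = 0.0247), whose near-identical neighbour Tgtp2 may share its reads. DESeq2 called 2 of the 14, and 0.678% of all genes. In lung, 8 were positive with a median of 0.04, and none passed by either tool, with 3 and 0 at an unadjusted p under 0.05, against 14.5% and 10.8% of all genes.

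Summed over the list, interferon response genes ran from 2340 to 2850 CPM in mature controls and 2980 to 4060 CPM in mature CD45 KO libraries. In immature ILC2 they ran from 2430 to 2590 and 4130 to 4510 CPM, and in lung from 727 to 1120 CPM in both genotypes together. Among CD45 comparisons members of this list passed in immature ILC2 alone, where Slfn2 was at 0.15 ± 0.41. The list medians were nevertheless close in mature and immature ILC2 (0.61 and 0.67). The mature Slfn2 value led to the family, so nothing is read from setting it beside the list. Whether Slfn2 and the list respond in different populations was not tested. For Igtp, Iigp1 and Tgtp1 the mature minus immature difference of effects did not pass (edgeR, adjusted p = 0.987, 0.987 and 1). In control libraries 10 of the 14 were lower in lung than in mature marrow and 9 lower than in immature marrow, with medians of -1.67 and -1.80. By edgeR the contrasts called 10.6% and 10.9% of all genes as lower in lung. DESeq2 called 8 of the 14 in each, in either direction, against 20% and 19.2% of all genes. There, Slfn2 and Slfn5 did not pass.

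A list of 17 genes tied to lymphocyte quiescence was described because of the known role of Slfn2, and 12 were tested. The same limit of the filter holds for them. None passed in a CD45 comparison by edgeR or DESeq2. At an unadjusted p under 0.05 were 2 by edgeR and 2 by DESeq2 in mature, 2 and 2 in immature, and 3 and 2 in lung ILC2. Of all genes, 9.03% and 5.64%, 12.3% and 7.52%, and 14.5% and 10.8% were. Median log2 fold changes were -0.40, -0.36 and 0.18, with 2, 3 and 8 of 12 positive. Tob1, an antiproliferative factor, was at 15.3 ± 8.75 CPM in mature CD45 KO and 67.6 ± 32.6 CPM in mature control libraries without passing (-1.92 ± 0.75, edgeR adjusted p = 0.38). It was at -1.70 ± 0.60 in immature and 0.92 ± 0.71 in lung ILC2 (edgeR adjusted p = 0.152 and 0.627). Btg1, the other listed gene at an unadjusted p under 0.05 by edgeR in mature ILC2, went the other way (0.375 ± 0.15, adjusted p = 0.386). Both are named after their values were seen. Between control tissues, 8 of the 12 differed in lung against mature and 10 in lung against immature marrow by edgeR, and 7 and 8 by DESeq2, where edgeR called 25.6% and 25.5% of all genes and DESeq2 20% and 19.2%. By edgeR, Btg1, Btg2, Klf4, Rb1 and Tob2 were higher in lung than in both marrow populations, and Klf2, Peli1 and Rbl2 were lower than in both. They too, and Ccl5 above, are named after their values were seen.

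Genes whose levels followed those of a member most closely were found by Pearson correlation of log2 CPM (prior count 2) over the 18 libraries. The points share libraries, depth and the same 6 groups. For Slfn2 they were Ndufa7 (r = 0.693), Eif3d (0.679), Hsp90ab1 (0.673), Inpp4b (0.665) and Ube2n (0.653). For Slfn5 they were Nup153 (0.744), Tbrg1 (0.728), Psmb10 (0.696), Coro1a (0.681) and Ndufb11 (0.647). For Slfn8 they were Pcbp1 (0.736), Ppp4r3a (0.698), Klf9 (0.693), Cdc5l (0.688) and Hnrnpab (0.683). No Schlafen gene was among the 5 closest to another.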

How the data were processed

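The authors deposited whole-number counts per gene symbol for 18 libraries, with no scaling between libraries. Per the labels, a sample was 200 sorted cells, although the extraction protocol names 100 cells per tube; cDNA was primed with oligo-dT carrying a molecular barcode. The submitters' processing notes name STAR and mm10. Not given in the sources used here are versions, the counting tool, the annotation, strand use and barcode collapsing.

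A fit of 6 group means over all libraries was made with edgeR 4.0.16 in R 4.3.3 (TMM factors, filterByExpr with a minimum count of 10, quasi-likelihood test). Benjamini-Hochberg adjustment ran over 1916 genes with a threshold of 0.05. Standard errors were taken as the log2 fold change over the square root of F. The steps were tested on simulated data. DESeq2 1.42.0, other scaling and filters, a replicate block and leaving out each library were alternatives. The genes named were the Schlafen entries, Ptprc, passing members of the lists in CD45 comparisons and the 5 most alike genes per member. Some genes under this rule are not reported here. Members and lists were chosen with earlier results of these data known. Gene positions came from GENCODE M21 and sequences from RefSeq (GRCm38.p6).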

Additional observations from a re-analysis of the deposited data

How the results depend on the processing

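Counts of the 4 members, 0 to 21 per library, limit what can be detected, as do 3 libraries per group. Of the 2 tested members, Slfn2 and Slfn5, the number called in mature CD45 KO against control ILC2 was 1 (Slfn10-ps is not counted here). It was 0 with only the mature libraries (Slfn2 2.06, adjusted p = 0.0517), 0 with the Wald test of DESeq2 and 0 with its p adjusted over the genes tested by edgeR, a setting chosen after seeing the data. It ranged from 0 to 1 when single libraries were left out. In lung against immature controls the number was 0 and ranged from 0 to 1. In the other 7 comparisons 0 of these members were called under every alternative run, the fit without a filter, which also tests Slfn1 and Slfn8, among them; DESeq2 under its own filter gave both no adjusted p in 2 of the 9 comparisons. The cause of these changes was not tested.

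Slfn2 in mature ILC2 ranged from 1.87 to 2.38 without single libraries and from 2.01 to 2.18 under the other alternatives. Without both mature libraries of number 1, also chosen later, it was 2.01 (adjusted p = 0.0456), and 17 genes of all passed in place of 5. Some small values changed sign when single libraries were left out: Slfn5 in mature CD45 KO against control ranged from -0.0882 to 0.593, Slfn2 in immature from -0.154 to 0.33, Slfn5 in lung against mature controls from -0.704 to 0.0738 and Slfn10-ps in the mature minus immature effect from -0.663 to 0.196. Without both libraries of number 1, Slfn5 in lung against mature controls was 0.0729. None of these passed in any fit. With the replicate number as a block, 1 member passed in mature ILC2 (Slfn2 2.07, adjusted p = 0.0154) and no Schlafen call changed. For pairing, each group's mean log2 CPM was subtracted gene by gene. The deviations left in same-numbered libraries of different groups had correlations of -0.0888 to 0.0601, and 0 of 18 pairs exceeded 0.1.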
